A study of Mus musculus with 12 samples.

Results

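The 9 genes described here encode transcription factors of the heart muscle program: the GATA zinc-finger factors Gata4 and Gata6, the homeodomain factor Nkx2-5, the basic helix-loop-helix factor Hand2, the T-box factors Tbx5 and Tbx20, and the MADS-box factors Mef2a, Mef2c and Mef2d. They were taken by gene name from the 14957 genes in the count tables, and the names were chosen with earlier results of these data known. All 9 had a row in every table and all 9 passed the filter on low counts, which left 13910 genes for testing. RNA was sequenced from snap-frozen ventricles of wild-type C57Bl/6J mice in 3 groups of 4. Sham-NT mice had sham surgery and received PBS. TAC-mScarlet mice had transverse aortic constriction, a banding of the aortic arch that loads the heart with pressure, and were given AAV9 particles in which the muscle promoter MHCK7 drives the red fluorescent protein mScarlet. TAC-BacNav mice were also constricted, and their AAV9 vector with the MHCK7 promoter carried BacNav, a bacterial voltage-gated sodium channel, together with mScarlet. The labels used here do not give age, sex, or the times between surgery, vector and tissue collection. Sham-NT mice received no vector, so in any contrast with Sham-NT the constriction and the vector change together and cannot be told apart.

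Cardiac transcription factors bind short DNA motifs near heart genes and act in combination: GATA4, NKX2-5 and TBX5 are known to contact each other and to occupy shared enhancers of sarcomere and natriuretic peptide genes. In the adult ventricle the same factors keep the contractile program running, and the activity of GATA4 and of the MEF2 proteins is known to be changed by phosphorylation, by class II histone deacetylases and by co-activators under pressure load. RNA-seq reads the transcript level of each factor and not its phosphorylation, location or DNA binding.

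Libraries held 5360869 to 11497836 counts, and every Sham-NT library (5360869 to 7837342) was shallower than every TAC-mScarlet library (8275608 to 9813733). The tissue label was checked against markers: 10 ventricular cardiomyocyte genes summed to 49686 to 89050 CPM (counts-per-million, over the TMM-scaled library size) across the 12 libraries, while the 2 atrial light chain genes Myl7 and Myl4 summed to 2.00 to 8.15 CPM. The atrial genes Sln and Bmp10 were not analysed here. Cardiomyocyte markers summed to 78069 to 89050 CPM in Sham-NT, 49686 to 66139 CPM in TAC-mScarlet and 58499 to 79182 CPM in TAC-BacNav. Fibroblast markers summed to 2287 to 2998, 3475 to 7957 and 3142 to 3747 CPM in the same order, and macrophage markers to 485 to 643, 727 to 1201 and 709 to 848 CPM. In bulk tissue, fewer cells of a type and less RNA per cell cannot be told apart. Immediate early genes divided the libraries across the groups: Fos was at 54.9 to 301 CPM in 7 libraries (mice 1 and 2 of Sham-NT, 1, 2 and 3 of TAC-mScarlet, 1 and 2 of TAC-BacNav) and at 1.60 to 7.89 CPM in the other 5. Mesothelial markers divided in the same way, with sums of 48.8 to 114 CPM in those 7 libraries and 13.6 to 23.0 CPM in the other 5.

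None of the 9 factors passed the test in any of the 3 contrasts (edgeR quasi-likelihood test, Benjamini-Hochberg adjusted p under 0.05 over 13910 genes). In TAC-mScarlet against Sham-NT, 0 of 9 were called, beside 5.17% of all tested genes (369 genes or 2.65% higher and 350 or 2.52% lower, against 698 and 205 genes with scaling to library size alone). At an unadjusted p under 0.05 there were 3 of 9, beside 22.2% of all genes. DESeq2 called 2 of 9 in that contrast, Tbx20 and Mef2c, and limma-voom called 0. Shares of all genes called by DESeq2 and limma-voom are not given here. Their counts, here and for the lists below, stand without a background share. In TAC-BacNav against TAC-mScarlet, 0 of 9 were called, beside 0% of all genes, and 0 of 9 had an unadjusted p under 0.05, beside 3.36%. In TAC-BacNav against Sham-NT, 0 of 9 were called, beside 0.0144% of all genes, and 2 of 9 had an unadjusted p under 0.05, beside 11.1%. Neither DESeq2 nor limma-voom called any of the 9 in the last 2 contrasts. The median absolute log2 fold change of the 9 was 0.20 in TAC-mScarlet against Sham-NT, against 0.23 over all tested genes. It was 0.098 against 0.12 in TAC-BacNav against TAC-mScarlet, and 0.22 against 0.18 in TAC-BacNav against Sham-NT. The summed level of the 9 genes was 692 to 878 CPM in Sham-NT, 724 to 855 in TAC-mScarlet and 682 to 836 in TAC-BacNav, and the 3 ranges overlapped. Within the set, the values that stood farthest apart between sham and constricted hearts were those of Tbx20 and Mef2c, with higher means after constriction, and of Tbx5 and Hand2, with lower ones.

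**Figure D1:**
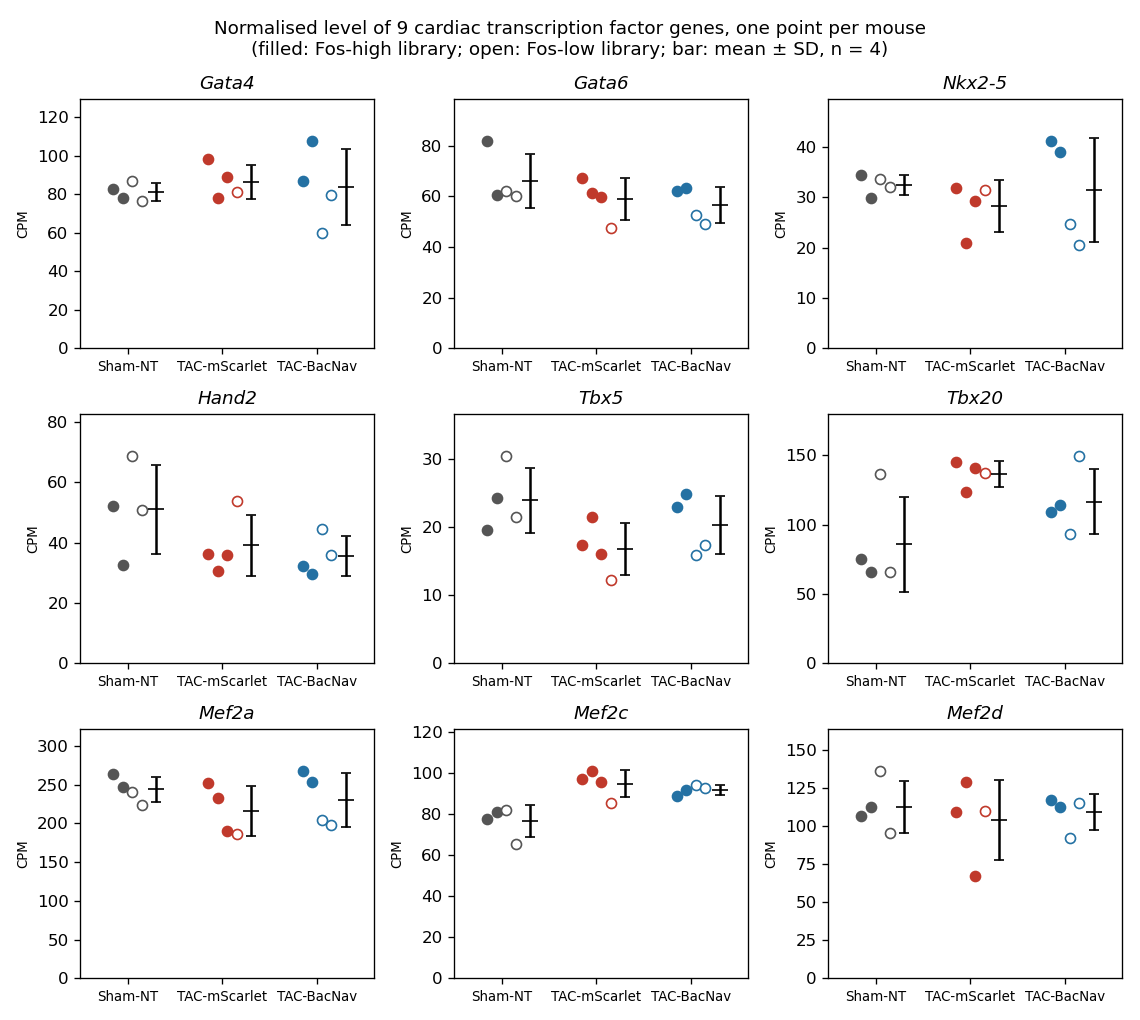
Each point is 1 library and each panel 1 transcription factor, in CPM, with bars for the group mean and SD (n = 4 mice), filled points on the high side of the Fos division and open points on the low side. Mef2c points of both constricted groups lie above all Sham-NT points, the Tbx20 point of Sham-NT mouse 3 (137 CPM) lies among the constricted hearts, and the other panels overlap.

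Tbx20, a T-box factor required for adult cardiomyocyte function, had the largest log2 fold change of the 9 in TAC-mScarlet against Sham-NT. The gene (ENSMUSG00000031965.15) lies on chromosome 9 of GRCm38, 24718138 to 24774303, on the minus strand. Its level was 75.1, 65.8, 137 and 65.9 CPM in Sham-NT mice 1 to 4, and 145, 123, 141 and 137 CPM in TAC-mScarlet mice 1 to 4. TAC-BacNav mice 1 to 4 had 110, 114, 93.4 and 150 CPM. Mice 1, 2 and 4 of Sham-NT lay below all 8 constricted hearts, while Sham-NT mouse 3 lay within their range. TAC-mScarlet against Sham-NT gave a log2 fold change of 0.66 ± 0.21 (SE, 95% interval 0.22 to 1.11), which edgeR's test did not call (adjusted p = 0.0765). Over the 8 fits that leave out a library the value ran from 0.55 to 0.99, with adjusted p from 0.00668 to 0.208 in edgeR. Only the fit without Sham-NT mouse 3 called the gene, and there the value was 0.99 (edgeR adjusted p = 0.00668). Between libraries on the high side of the Fos division it was 0.96 (edgeR adjusted p = 0.00417), and on the low side, which holds Sham-NT mouse 3 and a single TAC-mScarlet library, 0.41 (edgeR adjusted p = 0.883). TAC-BacNav against TAC-mScarlet gave -0.23 (95% interval -0.67 to 0.22), and TAC-BacNav against Sham-NT gave 0.44 (-0.01 to 0.89, edgeR adjusted p = 0.455).

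Tbx5, the T-box factor of the left ventricle and conduction system that is mutated in Holt-Oram syndrome, is on chromosome 5, 119832668 to 119885219, plus strand (ENSMUSG00000018263.11). It was measured at 19.6, 24.4, 30.5 and 21.5 CPM in Sham-NT, at 17.4, 21.5, 16.1 and 12.3 CPM in TAC-mScarlet, and at 23.0, 24.9, 16.0 and 17.4 CPM in TAC-BacNav. The highest value was in Sham-NT mouse 3 and the lowest in TAC-mScarlet mouse 4, and the groups overlapped. Its log2 fold change was -0.52 ± 0.20 (95% interval -0.93 to -0.10) in TAC-mScarlet against Sham-NT, with an adjusted p of 0.133 in edgeR. The corresponding values were 0.27 (-0.14 to 0.68) for TAC-BacNav against TAC-mScarlet and -0.25 (-0.66 to 0.17) for TAC-BacNav against Sham-NT. Neither interval leaves out 0.

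Mef2c, a MADS-box factor needed for the looping heart and expressed in cardiomyocytes and endothelium, was the only factor of the 9 whose constricted and sham libraries did not overlap. It lies on chromosome 13, 83504034 to 83667080, plus strand (ENSMUSG00000005583.16). Sham-NT mice had 77.9, 81.4, 82.2 and 65.4 CPM, TAC-mScarlet mice 97.5, 101, 95.9 and 85.6 CPM, and TAC-BacNav mice 88.8, 92.0, 94.6 and 93.0 CPM. All 8 constricted hearts lay above all 4 sham hearts, and the 2 constricted groups overlapped. Absence of overlap held for 1 of 9 factors in TAC-mScarlet against Sham-NT, beside 13.1% of all tested genes (6.33% higher and 6.78% lower). It held for 1 of 9 in TAC-BacNav against Sham-NT, beside 5.45% (3.08% higher and 2.37% lower). No factor was without overlap in TAC-BacNav against TAC-mScarlet, beside 1.7% of genes (0.762% higher and 0.935% lower). The log2 fold change of Mef2c was 0.31 ± 0.10 (95% interval 0.09 to 0.53, fold 1.24) in TAC-mScarlet against Sham-NT and was not called by edgeR (adjusted p = 0.0906). For TAC-BacNav against Sham-NT it was 0.26 ± 0.10 (0.04 to 0.48, edgeR adjusted p = 0.399). Between the constricted groups it was -0.05 (-0.26 to 0.17). Endothelial markers, a second source of Mef2c transcript, summed to 1042 to 1086 CPM in Sham-NT, 1087 to 1223 in TAC-mScarlet and 1055 to 1286 in TAC-BacNav, and their part in the Mef2c values was not tested.

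Mef2a, a MEF2 factor known to keep mitochondria and sarcomeres of the adult heart intact, and Mef2d, which is known to act in stress-dependent remodelling of the adult heart, both overlapped between all groups. Mef2a (chromosome 7, 67231163 to 67372858, minus strand) ranged from 224 to 263 CPM in Sham-NT, from 186 to 252 in TAC-mScarlet and from 198 to 268 in TAC-BacNav. Mef2d (chromosome 3, 88142372 to 88172086, plus strand) ranged from 95.2 to 136, from 66.9 to 129 and from 91.9 to 117 CPM. The lowest Mef2d value, 66.9 CPM, belonged to TAC-mScarlet mouse 3, the library with the highest fibroblast marker sum (7957 CPM), and the part of that sum in the Mef2d value was not tested. In TAC-mScarlet against Sham-NT the log2 fold changes were -0.18 (95% interval -0.46 to 0.11) for Mef2a and -0.12 (-0.48 to 0.24) for Mef2d, the latter at 0.0031 with scaling to library size alone. Against TAC-mScarlet, TAC-BacNav gave 0.10 (-0.19 to 0.38) for Mef2a and 0.07 (-0.29 to 0.44) for Mef2d. Exons of the opposite-strand gene Lysmd4 share 302 bases with Mef2a, or 2.06% of its exon length, and those of 1700113A16Rik share 531 bases with Mef2d, or 8.87%. How strand was handled in the counting is not known here, so reads in such stretches cannot be assigned to either gene.

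Gata4, the GATA factor known for driving natriuretic peptide and hypertrophic gene expression, varied least of the set between sham hearts. It lies on chromosome 14, 63198922 to 63271692, minus strand (ENSMUSG00000021944.15). Sham-NT mice had 82.7, 77.9, 86.8 and 76.4 CPM, TAC-mScarlet mice 98.0, 77.9, 88.7 and 81.1 CPM, and TAC-BacNav mice 86.8, 108, 59.9 and 79.6 CPM. The highest and the lowest of the 12 values were both in TAC-BacNav, where the coefficient of variation was 23.6%, against 5.85% in Sham-NT and 10.3% in TAC-mScarlet. This difference in spread was not tested. The log2 fold change was 0.09 (95% interval -0.22 to 0.41) in TAC-mScarlet against Sham-NT, -0.05 (-0.36 to 0.26) in TAC-BacNav against TAC-mScarlet and 0.04 (-0.27 to 0.36) in TAC-BacNav against Sham-NT. Gata6, which shares cardiac roles with Gata4, lies on chromosome 18, 11052064 to 11085635, plus strand. It was at 81.9, 60.3, 61.9 and 60.1 CPM in Sham-NT, at 67.3, 61.4, 59.8 and 47.6 CPM in TAC-mScarlet, and at 62.1, 63.1, 52.4 and 48.9 CPM in TAC-BacNav. Sham-NT mouse 1 stood above the rest and the groups overlapped. Its log2 fold changes were -0.16 (-0.46 to 0.14), -0.06 (-0.35 to 0.24) and -0.22 (-0.52 to 0.08) in the same order of contrasts. Exons of the opposite-strand gene 1010001N08Rik share 93 bases with Gata6, or 1.43% of the Gata6 exon length. Reads in that stretch cannot be assigned to either gene.

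Nkx2-5, the homeodomain factor of cardiac specification, lies on chromosome 17, 26838664 to 26845009, minus strand (ENSMUSG00000015579.5). Its values were 34.5, 29.9, 33.6 and 32.0 CPM in Sham-NT, 31.8, 20.8, 29.2 and 31.4 CPM in TAC-mScarlet, and 41.3, 39.1, 24.8 and 20.6 CPM in TAC-BacNav. The TAC-BacNav values fell into a high pair, mice 1 and 2, and a low pair, mice 3 and 4, which are also the pairs on the high and low sides of the Fos division. Gata4, Gata6, Tbx5 and Mef2a divided into the same pairs in TAC-BacNav. In Sham-NT and TAC-mScarlet, the Nkx2-5 values of the low side lay within the range of the high side. The part of the Fos division in these patterns was not tested. Within the high side TAC-BacNav against Sham-NT gave a log2 fold change of 0.32 for Nkx2-5, and over all libraries -0.05 (95% interval -0.48 to 0.38), or 0.035 with scaling to library size alone. TAC-BacNav against TAC-mScarlet gave 0.15 (-0.28 to 0.57) over all libraries. Within the low side, where 2 TAC-BacNav libraries meet a single TAC-mScarlet library that is assumed to vary like the others, it was -0.48. TAC-mScarlet against Sham-NT gave -0.20 (-0.63 to 0.23). None of these was called by edgeR.

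Hand2, a basic helix-loop-helix factor of the right ventricle and of the cardiac mesenchyme, lies on chromosome 8, 57320983 to 57324633, plus strand (ENSMUSG00000038193.4). The promoter window of 250 bases before its start (RefSeq, GRCm38.p6) is shown because it was the only factor window with GATA matches, printed 5′ to 3′ with matches in capitals.
Hand2, chr8:57320733-57320982, plus strand: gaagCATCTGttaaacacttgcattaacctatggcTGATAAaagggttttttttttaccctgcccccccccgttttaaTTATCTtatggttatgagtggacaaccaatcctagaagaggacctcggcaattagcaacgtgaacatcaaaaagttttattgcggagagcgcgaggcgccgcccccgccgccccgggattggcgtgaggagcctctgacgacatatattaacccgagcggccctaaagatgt
The capitals mark an E-box (CATCTG) 246 to 241 bases before the start and GATA sites (GATA with A or T before it and A or G after it) at 215 to 210 and 172 to 167, each on either strand. Hand2 was at 52.3, 32.6, 68.8 and 50.8 CPM in Sham-NT, at 36.2, 30.6, 35.9 and 53.7 CPM in TAC-mScarlet, and at 32.4, 29.6, 44.6 and 35.9 CPM in TAC-BacNav. Mice 1, 3 and 4 of Sham-NT lay above all of TAC-BacNav, and Sham-NT mouse 2 lay among the constricted hearts. The log2 fold change was -0.53 ± 0.21 (95% interval -0.98 to -0.07, edgeR adjusted p = 0.406) in TAC-BacNav against Sham-NT and -0.39 (-0.84 to 0.06, edgeR adjusted p = 0.296) in TAC-mScarlet against Sham-NT. Between the constricted groups it was -0.14 (-0.59 to 0.32). Hand2os1, the long noncoding RNA transcribed from the opposite strand next to Hand2, shares 461 exon bases with it, or 19.6% of the Hand2 exon length. Hand2os1 averaged 107 ± 7.73 CPM (SD, n = 4) in Sham-NT, 82.6 ± 7.48 in TAC-mScarlet and 83.8 ± 6.90 in TAC-BacNav. All 8 constricted hearts lay below all 4 sham hearts for Hand2os1, with a log2 fold change of -0.37 ± 0.11 (edgeR adjusted p = 0.0562) in TAC-mScarlet against Sham-NT. Since the handling of strand in the counting is not known here, reads in the shared exon bases cannot be assigned to Hand2 or Hand2os1.

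**Figure D2:**
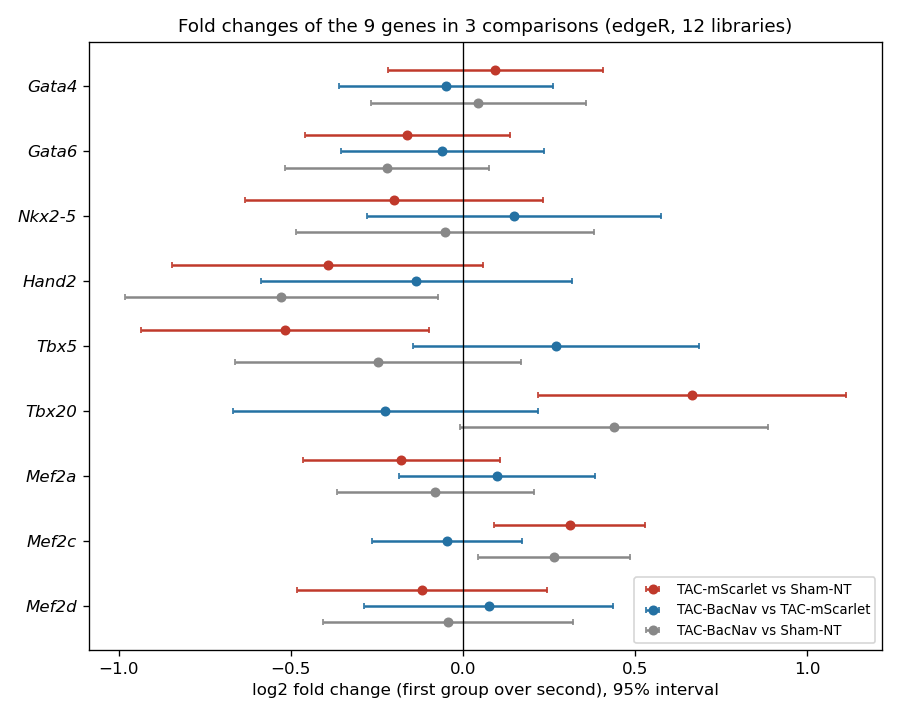
Log2 fold changes of the 9 factors in the 3 contrasts, as points with 95% intervals from edgeR. The interval leaves out 0 for Tbx20, Mef2c and Tbx5 in TAC-mScarlet against Sham-NT and for Mef2c and Hand2 in TAC-BacNav against Sham-NT, and no factor passed the adjusted threshold.

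The 9 transcripts were then ordered by level per length, in CPM per kilobase of annotated exon. In Sham-NT the order was Hand2 (21.8), Gata4 (20.7), Nkx2-5 (18.9), Mef2d (18.8), Mef2a (16.6), Gata6 (10.1), Tbx20 (7.16), Tbx5 (5.14) and Mef2c (4.88). Mef2a and Gata6 were the only neighbours in that order whose libraries did not overlap. In TAC-mScarlet Gata4 (22.1) stood first and Tbx5 (3.60) last, with Mef2d at 17.3, Hand2 at 16.6, Nkx2-5 at 16.5, Mef2a at 14.7, Tbx20 at 11.4, Gata6 at 9.07 and Mef2c at 6.05 CPM per kilobase. Neighbours without overlap were Mef2a and Tbx20, Gata6 and Mef2c, and Mef2c and Tbx5. In TAC-BacNav the order was Gata4 (21.4), Nkx2-5 (18.3), Mef2d (18.2), Mef2a (15.7), Hand2 (15.2), Tbx20 (9.73), Gata6 (8.70), Mef2c (5.86) and Tbx5 (4.35), and the neighbours without overlap were Hand2 and Tbx20, Gata6 and Mef2c, and Mef2c and Tbx5. Tbx5 thus stood above Mef2c in the sham mean and below it in all libraries of both constricted groups. Exon length here is the union over annotated transcripts, from 1719 bases for Nkx2-5 to 15715 for Mef2c, so genes with long untranslated regions or many isoforms are placed low on this scale.

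**Figure D3:**
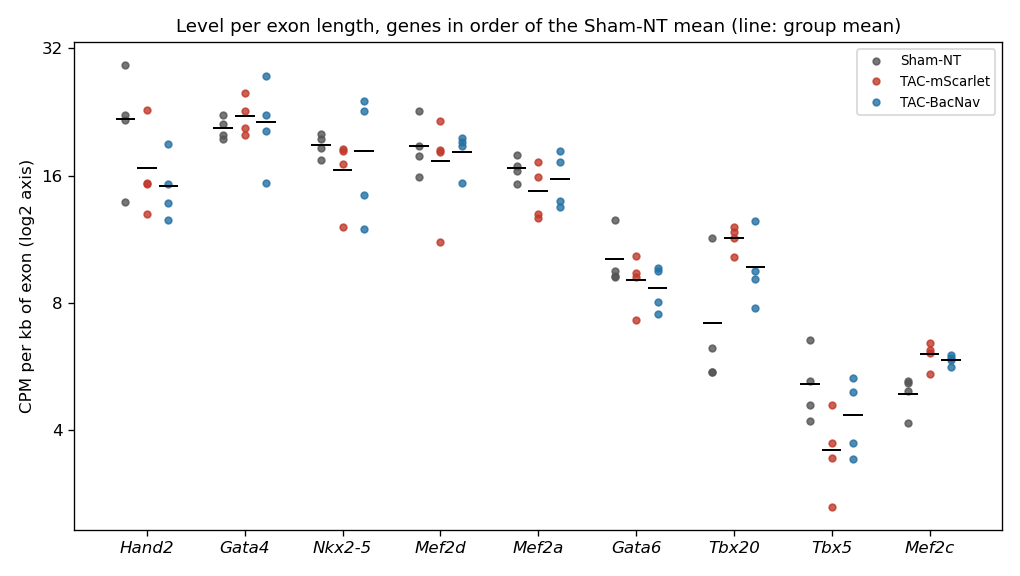
Levels of the 9 factors per kilobase of exon, by group, with 1 point per library and a bar for the mean (n = 4). Hand2, Gata4, Nkx2-5, Mef2d and Mef2a form the upper part of the order and Mef2c and Tbx5 the lower part in all 3 groups.

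Because members of a family can replace each other at shared motifs, the balance within families was read as the ratio of counts inside each library, which does not depend on the scaling of libraries. The Tbx5 to Tbx20 ratio was 0.261, 0.371, 0.223 and 0.326 in Sham-NT, 0.120, 0.174, 0.114 and 0.0898 in TAC-mScarlet, and 0.210, 0.218, 0.171 and 0.116 in TAC-BacNav. All 8 constricted hearts lay below all 4 sham hearts, Sham-NT mouse 3 included, and the constricted groups overlapped. The mean log2 ratio differed by -1.26 between TAC-mScarlet and Sham-NT and by -0.74 between TAC-BacNav and Sham-NT. Each has a p of 0.0286 in a two-sided exact permutation test of 4 against 4, the smallest p that its 70 arrangements allow. The ratio of Mef2a to Mef2c was 3.38, 3.04, 2.94 and 3.43 in Sham-NT and 2.59, 2.30, 1.99 and 2.18 in TAC-mScarlet, a difference of -0.50 in mean log2 ratio without overlap (exact permutation p = 0.0286). TAC-BacNav, at 3.02, 2.75, 2.16 and 2.13, overlapped both groups in this ratio. The Mef2d to Mef2c ratio averaged 1.46 ± 0.135 (SD, n = 4) in Sham-NT, 1.09 ± 0.275 in TAC-mScarlet and 1.19 ± 0.150 in TAC-BacNav, with all constricted hearts below all sham hearts. The Mef2a to Mef2d ratio averaged 2.20 ± 0.308, 2.17 ± 0.530 and 2.12 ± 0.265, and its groups overlapped. Gata4 to Gata6 averaged 1.24 ± 0.167, 1.48 ± 0.179 and 1.47 ± 0.254, and Nkx2-5 to Gata4 averaged 0.402 ± 0.0190, 0.327 ± 0.0492 and 0.378 ± 0.0919, with overlap in every contrast. Of the 18 tests (6 ratios in 3 contrasts), 5 were at the smallest possible p and 0 passed after Benjamini-Hochberg adjustment, where the smallest adjusted p of the exact permutation tests was 0.103. With so few arrangements, a ratio could pass only if most of the 18 tests stood at that smallest p. How often other gene pairs lack overlap was not computed. Among single genes it was 13.1% in TAC-mScarlet against Sham-NT and 5.45% in TAC-BacNav against Sham-NT. The 2 contrasts with Sham-NT share the same sham libraries.

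**Figure D4:**
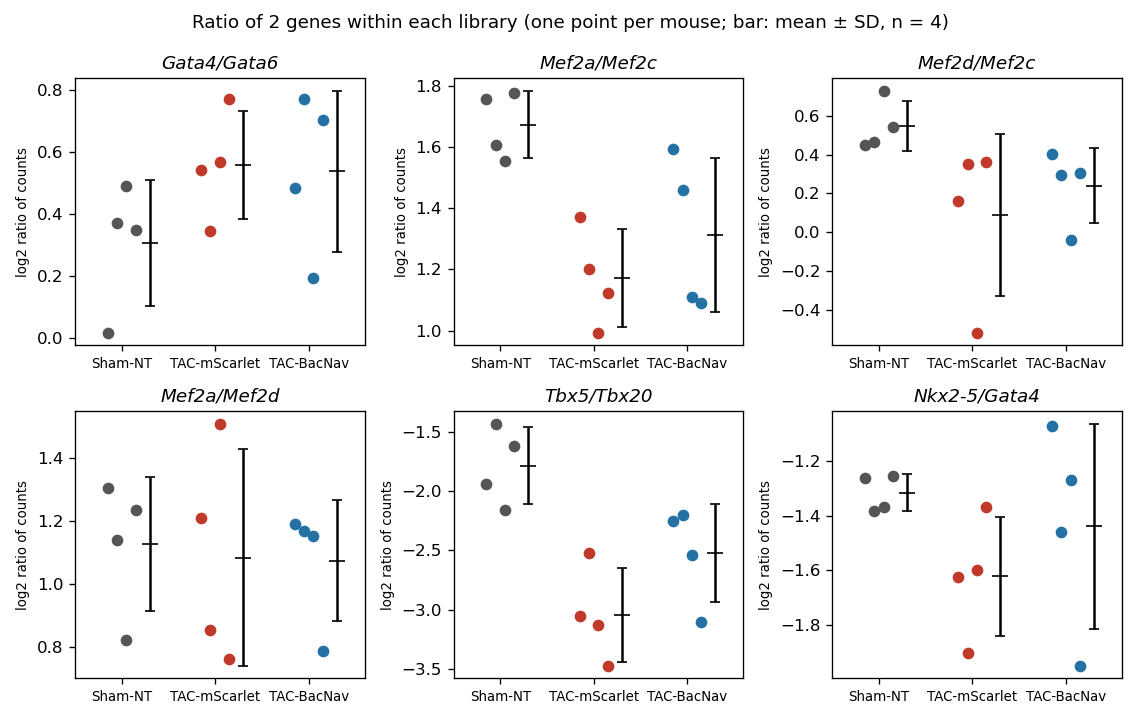
Ratios of counts between pairs of factors, as log2 values, with 1 point per library and bars for the mean and SD (n = 4 per group). Tbx5 to Tbx20 and Mef2d to Mef2c lie lower in both constricted groups than in every Sham-NT library, Mef2a to Mef2c does so in TAC-mScarlet, and the other ratios overlap.

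Other genes of the program were read from lists of further cardiac transcription factors, of partners and regulators, and of known target genes. Of the further cardiac transcription factors, 16 were tested and 0 were called by edgeR, DESeq2 or limma-voom in any contrast. At an unadjusted p under 0.05 in edgeR there was 1 of 16 in TAC-mScarlet against Sham-NT, beside 22.2% of all genes. There were 0 of 16 in TAC-BacNav against TAC-mScarlet, beside 3.36%, and 0 of 16 in TAC-BacNav against Sham-NT, beside 11.1%. The list had a median log2 fold change of -0.07 in TAC-mScarlet against Sham-NT, against 0.0044 over all genes. The smallest unadjusted p belonged to Hey2, a Notch-responsive repressor of the compact ventricular wall, at 4.93 CPM in TAC-mScarlet and 7.27 CPM in Sham-NT (log2 fold change -0.56, edgeR adjusted p = 0.152). Tbx2, a T-box repressor, came next with 0.41 (edgeR adjusted p = 0.252). Between the constricted groups the smallest unadjusted p values of this list belonged to Prdm16, with a log2 fold change of 0.19, and to Irx3, with -0.32. In TAC-BacNav against Sham-NT they belonged to Tbx2, with 0.36, and to Hey2, with -0.38.

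Among 26 partners and regulators, edgeR called 0 higher and 1 lower in TAC-mScarlet against Sham-NT. That is 3.85%, beside 5.17% of all genes called in either direction and 2.52% called lower, and the median log2 fold change was -0.05. The gene that fell was Mapk14, which encodes the p38 alpha kinase known to phosphorylate MEF2 proteins and GATA4. Mapk14 averaged 73.4 ± 13.6 CPM (SD, n = 4) in TAC-mScarlet and 108 ± 12.2 CPM in Sham-NT, a log2 fold change of -0.56 ± 0.15 (edgeR adjusted p = 0.0419). Its call was lost without TAC-mScarlet mouse 3 or 4 or Sham-NT mouse 1, 2 or 4, with values from -0.64 to -0.46 and adjusted p up to 0.126 in edgeR. It was also lost with scaling to library size alone and in limma-voom. DESeq2 called 3 of 26 in this contrast: Mapk14 (-0.57, DESeq2 adjusted p = 0.0109), Hopx, the homeodomain-only protein gene (-0.93, DESeq2 adjusted p = 0.01), and Yap1, the Hippo pathway co-activator (0.34, DESeq2 adjusted p = 0.0376). Hopx was the 1 gene that limma-voom called (-1.02, limma-voom adjusted p = 0.0492). The shares of all genes that DESeq2 and limma-voom called are not given here. Between the constricted groups 0 of 26 were called by any of the 3 tools and 0 had an unadjusted p under 0.05 in edgeR. Yap1 and Hdac9, a class II deacetylase that represses MEF2, had the smallest unadjusted p, with log2 fold changes of -0.22 and -0.32. Against Sham-NT, TAC-BacNav had 0 of 26 called by any of the 3 tools and 2 with an unadjusted p under 0.05 in edgeR, beside 11.1% of all genes. They were Mapk14 at a log2 fold change of -0.44 and Hopx at -0.61.

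Known target genes of these factors were read next, with edgeR. Their list was chosen with earlier results of these data known, so its shares beside those of all genes describe the list and do not test it. Of 28 targets, 8 rose, 7 fell and 13 did not pass in TAC-mScarlet against Sham-NT, or 53.6% called beside 5.17% of all genes (2.65% higher and 2.52% lower), with a median log2 fold change of -0.08. Ankrd1, a titin-binding stress protein, averaged 5538 ± 1667 CPM (SD, n = 4) in TAC-mScarlet and 839 ± 135 in Sham-NT, a log2 fold change of 2.72 ± 0.24 (edgeR adjusted p = 6.7e-05). Myh7, the slow beta-myosin heavy chain, averaged 748 ± 274 against 148 ± 13.9 CPM, a log2 fold change of 2.34 (edgeR adjusted p = 0.00406). Xirp2, an intercalated disc and Z-disc protein, gave 1.99 (edgeR adjusted p = 0.0204) and Bcl2, an apoptosis inhibitor, gave 1.40 (edgeR adjusted p = 0.0149). The other 4 that rose were the natriuretic peptide genes Nppa (4.79) and Nppb (2.16), Acta1 (4.82) and Xirp1 (1.15). Those that fell were Tnni3, cardiac troponin I, at -0.93 (edgeR adjusted p = 0.0204), Atp2a2, the sarcoplasmic calcium pump, at -0.62 (adjusted p = 0.0323), Hrc, a calcium-binding protein of the sarcoplasmic reticulum, at -0.67 (adjusted p = 0.0381), and Corin, the protease that activates atrial natriuretic peptide, at -0.63 (adjusted p = 0.0262), with Myh6, Tnnt2 and Adora1.

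Leaving out a single library moved the count of called targets from 15 to 5 without TAC-mScarlet mouse 3, to 9 without TAC-mScarlet mouse 4 or Sham-NT mouse 1, and to 2 without Sham-NT mouse 2 or mouse 4. The share of all genes called in each of those fits is not given here. These falls therefore cannot be set beside the change over all genes. Ankrd1 and Myh7 were the 2 targets called by edgeR in all 8 fits that leave out a library, with log2 fold changes of 2.55 to 2.85 for Ankrd1 and 2.07 to 2.50 for Myh7. Myh6, at -0.74, was called in none of them, and kept a value between -0.82 and -0.56. Scaling to library size alone gave 12 called targets, 9 higher and 3 lower, and lost the calls of Myh6, Tnnt2, Hrc and Adora1. Of 10 cardiomyocyte markers 3 fell (Myh6, Tnnt2 and Tnni3, which are targets as well), beside 2.52% of all genes called lower. The median over the 10 was -0.47. Of 9 fibroblast markers 4 rose and of 8 macrophage markers 4 rose, beside 2.65% of all genes called higher. None of these called markers held in all 8 fits that leave out a library. Lum kept its call in 6 of 8 and Csf1r in 1 of 8, with the others between. The part of these markers in the target values was not tested.

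In TAC-BacNav against TAC-mScarlet, 0 of 28 targets were called by edgeR, beside 0% of all genes. At an unadjusted p under 0.05 there were 6 of 28, beside 3.36% of all genes, and limma-voom called 0. These shares and those below describe a list chosen with earlier results of these data known. The DESeq2 and limma-voom counts have no share of all genes beside them. Myh7 stood at -1.53 (edgeR adjusted p = 0.780) and Ankrd1 at -1.03 (edgeR adjusted p = 0.855), and these were the 2 targets that DESeq2 called, at -1.54 (DESeq2 adjusted p = 0.000534) and -1.04 (DESeq2 adjusted p = 0.0282). In TAC-BacNav against Sham-NT, 1 of 28 was called, or 3.57% beside 0.0144% of all genes, and 15 of 28 had an unadjusted p under 0.05, beside 11.1%. It was Ankrd1, at 2703 ± 758 CPM (SD, n = 4) in TAC-BacNav, with a log2 fold change of 1.69 against Sham-NT (edgeR adjusted p = 0.0401). DESeq2 called 3 of 28: Ankrd1 (1.68, DESeq2 adjusted p = 1.03e-08), Acta1 (3.99, DESeq2 adjusted p = 6.72e-05) and Xirp1 (1.05, DESeq2 adjusted p = 0.0155), and limma-voom called 1, Ankrd1. The edgeR call of Ankrd1 held in 1 of 8 fits that leave out a library, the one without TAC-BacNav mouse 1, with values from 1.57 to 1.85 and adjusted p up to 0.227.

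**Figure D5:**
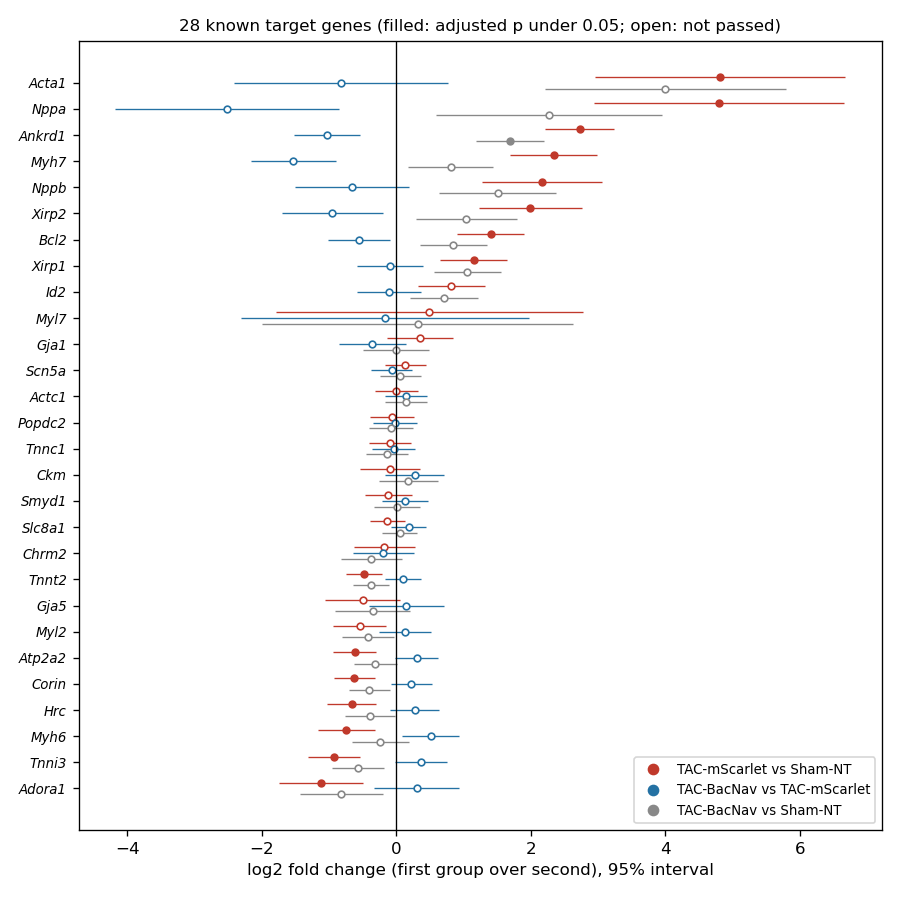
Log2 fold changes of the 28 known target genes in the 3 contrasts, with 95% intervals from edgeR and filled points for called genes. In TAC-mScarlet against Sham-NT 8 higher and 7 lower points are filled, in TAC-BacNav against Sham-NT that of Ankrd1, and between the constricted groups 0.

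To show the motifs these proteins are known to bind, promoter windows of 250 bases before the annotated start were taken from RefSeq (GRCm38.p6) for 25 of the 28 targets and 6 of the 9 factors. Gata4, Gata6 and Tbx5 have no window here. The windows printed are those of the 4 targets that rose and held a GATA site. They run 5′ to 3′ on the strand of the gene with motif matches in capitals, to show how the letters are arranged. The windows of Acta1, Bcl2 and Myh7, which also rose, held no GATA site and are not printed. Xirp1, which rose too, has no window here.
Nppa, chr4:148000472-148000721, plus strand: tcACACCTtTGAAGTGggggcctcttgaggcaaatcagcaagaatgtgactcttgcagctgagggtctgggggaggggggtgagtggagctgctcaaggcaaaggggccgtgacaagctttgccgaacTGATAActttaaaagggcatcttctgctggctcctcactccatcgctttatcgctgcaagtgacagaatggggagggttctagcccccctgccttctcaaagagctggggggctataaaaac
Nppb, chr4:147985650-147985899, plus strand: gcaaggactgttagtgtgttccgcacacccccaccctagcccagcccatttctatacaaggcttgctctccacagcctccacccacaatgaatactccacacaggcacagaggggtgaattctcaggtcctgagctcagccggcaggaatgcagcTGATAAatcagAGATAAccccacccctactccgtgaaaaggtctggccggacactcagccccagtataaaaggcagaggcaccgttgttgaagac
Xirp2, chr2:67445752-67446001, plus strand: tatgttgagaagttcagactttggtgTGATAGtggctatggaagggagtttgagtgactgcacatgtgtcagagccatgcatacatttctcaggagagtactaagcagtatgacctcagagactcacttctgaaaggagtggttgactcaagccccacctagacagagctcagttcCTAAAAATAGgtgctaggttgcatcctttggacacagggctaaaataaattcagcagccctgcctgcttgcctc
Ankrd1, chr19:36119845-36120094, minus strand: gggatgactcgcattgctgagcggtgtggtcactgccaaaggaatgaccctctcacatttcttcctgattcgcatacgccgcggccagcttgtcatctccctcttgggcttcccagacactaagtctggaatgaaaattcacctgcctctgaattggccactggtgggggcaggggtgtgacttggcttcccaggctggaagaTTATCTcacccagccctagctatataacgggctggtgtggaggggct
Motifs were searched on both strands: the GATA site as above, the Nkx2-5 site as TNAAGTG, the T-box half-site as AGGTGT, the Hand E-box as CATCTG, and the MEF2 element and the CArG box of serum response factor by their consensus. The Nppa window holds a T-box half-site 248 to 243 bases before the start, an Nkx2-5 site at 241 to 235 and a GATA site at 122 to 117. In Nppb there are GATA sites at 95 to 90 and 84 to 79, in Xirp2 a GATA site at 224 to 219 and a MEF2 element at 74 to 65, and in Ankrd1 a GATA site at 47 to 42. The Hand2 window shown above was searched in the same way.

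A GATA site was present in 11 of 29 target windows, or 37.9%, beside 26.5% of 32851 windows genome-wide. Windows of targets that rose held it in 4 of 8, from 7 genes, and windows of targets that fell in 2 of 8, from 6 genes. The Nkx2-5 site was in 3 target windows (10.1% genome-wide), the T-box half-site in 2 (11.8%), the Hand E-box in 3 (14.4%), the MEF2 element in 1 (2.92%) and the CArG box in 3 (1.47%). Of 8 windows of the factors, the GATA site was in 1, the T-box half-site in 1 and the E-box in 2. Windows of Tbx20, Nkx2-5, Mef2a and Mef2d held none of these letters. A match is a description of the letters and not of binding.

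The genes whose levels across the 12 libraries were most like those of Tbx20, by Pearson's r of log2(CPM + 1), were Wipi1 (0.965), Cpd (0.953), Setd7 (0.948), Tpr (0.947) and Hspa4 (0.944). For Mef2c they were Kdm4c (0.909), Lars (0.907), Wdr20 (0.907), Sh3rf1 (0.900) and Camkmt (0.899). For Tbx5 they were Dcaf12l1 (0.930), Kcnd2 (0.926), Bhlhb9 (0.926), Sobp (0.908) and Lamb3 (0.904). The 12 points share the group structure, the Fos division and the depth of the libraries, and the highest of 13782 correlations is large by selection.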

How the data were processed

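Bulk RNA-seq counts of 12 ventricle libraries were used as the authors deposited them, as whole-number read counts per gene. HISAT2, featureCounts and GRCh38 are named in the submitters' processing notes, without a strand setting and with versions not given in the sources used here. All identifiers in the tables are mouse Ensembl genes, and 14946 of 14957 match GENCODE vM21 (GRCm38) without their version, from which positions and exon lengths were taken. No 2 libraries agreed within sampling noise: the lowest chi-square per degree of freedom between libraries of a group was 5.35. From the counts, genes were filtered with filterByExpr (1047 removed), scaled with TMM and tested with edgeR 4.0.16 (quasi-likelihood, robust, all 12 libraries in 1 fit, no covariates). Benjamini-Hochberg adjustment ran over 13910 genes, with calls at an adjusted p under 0.05. The labels say nothing on separate surgeries or cages, so p-values measure the spread between these mice. The members and the gene lists were chosen with earlier results of these data known. All members were named, and, from each list, per contrast and direction, up to 4 called genes by adjusted p, or the 2 with the smallest unadjusted p where none was called. The other called targets, cardiomyocyte markers that fell, and genes called by DESeq2 or limma-voom alone were named after their values were seen. Scripts were tested on simulated data. Alternatives were other scalings, no filter, DESeq2 1.42.0, limma-voom, the groups of a contrast alone, a replicate block, the Fos division and leaving out each library.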

Additional observations from a re-analysis of the deposited data

Results flagged for a closer look

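Of 45 groups of 4 libraries checked for a library far from the rest, 3 were marked, where chance marks about 1 in 20. The gap between the extreme library and its nearest neighbour was divided by the range of the group and compared with Dixon's critical value for 4 samples. Gata6 in Sham-NT mouse 1 was at 81.9 CPM, with a gap of 0.919 of the range. Tbx20 in Sham-NT mouse 3 was at 136.9 CPM, with a gap of 0.869 of the range. The Mef2a to Mef2d count ratio of TAC-BacNav mouse 4 was 1.724, with a gap of 0.889 of the range.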

How the results depend on the processing

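Of 486 alternative fold changes of the 9 factors, 451 kept their direction and their side of the threshold, 29 changed sign and 6 passed the threshold where the reported value did not. The 6 were all in TAC-mScarlet against Sham-NT: Tbx20 with DESeq2 (0.66, adjusted p = 0.0401), with the immediate early gene division as a factor (0.74, edgeR adjusted p = 0.0355), within its high side and without Sham-NT mouse 3, and Mef2c with scaling to library size (0.44, edgeR adjusted p = 0.0327) and with DESeq2 (0.31, adjusted p = 0.0370). The count of called factors in that contrast thus went from 0 to 1 with library size scaling, to 2 with DESeq2, to 1 with the division as a factor, to 1 within its high side, and ranged from 0 to 1 when a library was left out. Scaling to library size moved the median of all genes by 0.13 in that contrast and by 0.098 in TAC-BacNav against Sham-NT. The fits within a side of the division were added after seeing the data, and their low side holds 1 TAC-mScarlet library, so its values against that group rest on a single mouse.

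In TAC-mScarlet against Sham-NT, called targets numbered 6 within the high side (3 TAC-mScarlet and 2 Sham-NT libraries) and 6 within the low side (1 and 2, the lone library being assumed to vary like the other groups), and from 2 to 13 when a library was left out, against 15. In TAC-BacNav against TAC-mScarlet they numbered 2 with DESeq2 and 1 within the high side, against 0. In TAC-BacNav against Sham-NT they numbered 3 with DESeq2, 4 within the low side, and 0 to 2 when a library was left out, against 1. Shares of all genes called are not given here for these fits or for the replicate block. With mouse number as a replicate block, no factor was called in any contrast, and 14, 2 and 2 targets were called in the same order of contrasts. Those between the constricted groups were Ankrd1 (-1.02, edgeR adjusted p = 0.035) and Nppa (-2.31, edgeR adjusted p = 0.0131), and in TAC-BacNav against Sham-NT Ankrd1 (1.66) and Nppa (2.10). The labels do not say whether mouse numbers pair the libraries. The correlation of deviations between same-numbered libraries ran from -0.292 to 0.379 and was over 0.1 in 8 of 12 pairs. A library's best match in another group had its own number in 7 of 24 cases. In every group mice 1 and 2 were on the high side of the Fos division and mouse 4 on the low side. Whether the numbers mark a shared handling was not tested.

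The cause of the sign changes that follow was not tested. In TAC-mScarlet against Sham-NT they were Gata4 within the low side (-0.027) and Mef2d with library size scaling (0.0031). In TAC-BacNav against TAC-mScarlet they were Gata4 within the high side (0.14), Gata6 with the division as a factor (0.017) and within the low side (0.087), and Nkx2-5 (-0.48), Mef2c (0.13) and Mef2d (-0.093) within the low side. In TAC-BacNav against Sham-NT they were Gata4 within the low side (-0.25), Nkx2-5 (0.035), Mef2a (0.013) and Mef2d (0.05) with library size scaling, and Nkx2-5 (0.32), Tbx5 (0.12), Mef2a (0.029) and Mef2d (0.073) within the high side. When a library was left out, Mef2d ran from -0.24 to 0.041 in the first contrast. Between the constricted groups, Gata4 ran from -0.20 to 0.090, Gata6 from -0.15 to 0.0088, Nkx2-5 from -0.013 to 0.31, Mef2d from -0.085 to 0.20 and Hand2 from -0.25 to 0.057. In TAC-BacNav against Sham-NT, Gata4 ran from -0.10 to 0.18, Nkx2-5 from -0.21 to 0.11 and Mef2d from -0.12 to 0.063. Log2 ratios that changed sign were Mef2a to Mef2d in the 3 contrasts (-0.19 to 0.064, -0.12 to 0.13 and -0.15 to 0.043), Nkx2-5 to Gata4 in TAC-BacNav against Sham-NT (-0.25 to 0.048), and Gata4 to Gata6 (-0.097 to 0.096) and Mef2d to Mef2c (-0.052 to 0.24) between the constricted groups. Tbx5 had the fewest counts of the 9, down to 99 in a library, and 4 mice per group leave intervals of the width given for each factor.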
